A study of Mus musculus with 6 samples.

Results

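The nuclear genes of the mitochondrial respiratory chain and ATP synthase were followed across 3 kinds of mouse gonadal cells. Members were taken by gene symbol: every symbol that starts with Nduf followed by a, b, c, s or v, with Uqcr, with Cox followed by a digit from 4 to 8, or with Atp5, together with Sdha, Sdhb, Sdhc and Sdhd. The rule itself uses no measured value. It gave 96 probes for 85 genes, out of 21876 probes for 19084 genes that carry 1 symbol. After a filter on low values, 82 of the 85 were tested, among 15459 genes tested in all. The other 3 (Atp5d, Cox8c and the pseudogene Uqcrh-ps1) lay below the 30th percentile of every array. Of the 85, 8 are Ndufaf genes, which encode factors that help build complex I and are not part of it.

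RNA was hybridised to 6 OneArray microarrays with 1 dye (Cy5), 2 arrays in each of 3 groups, all from the outbred mouse strain ICR. GSC colony arrays held RNA from colonies picked after testicular cells of 80 mice, newborn to 2 days old, had grown for 7 days under 5% O2, the colonies that the protocol calls AP+GSC. CD49f+ sorted arrays held RNA of testicular cells of the same age, from 100 mice, bound by an antibody to CD49f and a magnetic column and never cultured. CD49f is the integrin alpha 6 chain encoded by Itga6, and the labels of these cells read physiological hypoxia without an oxygen value. PGC colony arrays held RNA from colonies picked after gonadal cells of 67 embryos at E11.5, of unstated sex, had grown for 7 days under 5% O2. Both kinds of colony grew on laminin at 200 ng/cm2 in MCDB-201 medium with insulin, transferrin, selenium and EGF at 10 ng/ml. The labels expand GSC as Glandular Stem Cells, and PGC stands for primordial germ cell. Animals were pooled, and nothing in the labels shows whether both arrays of a group had separate preparations, so p-values measure the spread between arrays, which may be technical. The sorted cells differ from GSC colonies in culture and selection, and from PGC colonies in developmental stage as well, and their oxygen level is not given. The 2 kinds of colony differ in stage and tissue of origin. The parts of these in a difference cannot be told apart.

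The respiratory chain sits in the inner mitochondrial membrane. Complex I (NADH dehydrogenase) and complex II (succinate dehydrogenase) pass electrons to ubiquinone, complex III passes them to cytochrome c, and complex IV (cytochrome c oxidase) passes them to oxygen. Complexes I, III and IV pump protons, and ATP synthase, complex V, uses the gradient to make ATP. Several subunits of complex IV exist as paralogs, 1 made in most tissues and the other in muscle, in testis or at low oxygen. The catalytic subunits of complex IV and several others are encoded in mitochondrial DNA and were not analysed here.

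Values below are log2 intensities after background correction and quantile normalization between arrays. A difference is between group means with its standard error (SE), from 1 limma fit over all 6 arrays. A gene was called where limma's Benjamini-Hochberg adjusted p, over all 15459 genes, was under 0.05. Levels are compared between arrays for the same probe, never between probes. Within a group the arrays correlated over all tested genes at 0.976 (GSC colony), 0.990 (CD49f+ sorted) and 0.989 (PGC colony), and sorted arrays correlated with colony arrays at 0.849 to 0.880. Median deposited intensity was 541 to 606 on the colony arrays and 393 to 406 on the sorted arrays. In bulk RNA such as this, fewer cells of a type and less RNA per cell cannot be told apart.

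Most members differed little between colonies and sorted cells, and the largest rise and the largest called falls were in complex IV isoforms. In GSC colonies against sorted cells the median difference of the 82 members was -0.01 and their median absolute difference was 0.29, against -0.01 and 0.42 for all genes tested. The absolute difference was within 0.5 for 62 members (75.6%, against 56.3% of all genes). Cox6a2, Ndufa4l2, Ndufv3 and Atp5md were higher in GSC colonies and Cox7a1 and Cox6b2 lower, each called and by at least 2-fold on this scale. These 6 were 7.32% of the members, where 20.7% of all genes were called at that size. At any size 30 members were called (36.6%), 13 higher and 17 lower, against a background of 47.1% of all genes, 22.5% higher and 24.5% lower. The 2 arrays of 1 group lay apart from those of the other for 65 members (79.3%), near the 75.6% of all genes.

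The number called in this comparison rested on the number of arrays. It was 19 without the first and 19 without the second GSC colony array, 15 without the first sorted array and 11 without the second, while the share of all genes called fell to between 34.2% and 40.9%. The direction of the small changes also depended on how the arrays were put on 1 scale. With each array centred on its median in place of quantile normalization, 26 members were higher and 3 lower, so that 89.7% of the called members were higher, against 43.3% with quantile normalization. Over all genes called, 55.8% were then higher, against 47.9%. With no normalization between arrays the median of all genes moved to 0.47, the median of the members to 0.64, and 59 members were called higher and 3 lower (95.2% higher, against 82.5% of all genes called). Under all 3 scalings 12 members were called higher (Atp5md, Cox4i1, Cox6a2, Cox8b, Ndufa4l2, Ndufab1, Ndufaf8, Ndufb10, Ndufb9, Ndufs8, Ndufv3 and Uqcrq) and 3 lower (Cox6b2, Cox7a1 and Ndufc2). The other 14 members called lower under quantile normalization were not called lower under either alternative scaling. Many members are bright: 35 of the 82 had a mean level of 14 or more, as did 1015 of 15459 genes. For genes that bright the median difference was 0 after quantile normalization and 0.33 after centring.

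PGC colonies gave a similar count against the same 2 sorted arrays, so the comparisons share their reference and are not independent. Of the 82 members, 30 were called (36.6%), 21 higher and 9 lower, where 46% of all genes were called, 22.8% higher and 23.2% lower. Of these, 7 were called at 2-fold or more on the fitted scale (8.54%), against a background of 20%: Cox6a2, Ndufv3, Atp5md, Cox8b and Ndufab1 were higher and Cox6b2 and Cox7a1 lower. Without the first or the second sorted array fewer members were called, and fewer of all genes as well. Called members were higher in 70% of cases here, in 87.1% with median centring (27 higher, 4 lower) and in 96.4% with no normalization (53 higher, 2 lower, with all genes moved by 0.42). Of all genes called, 49.5%, 55% and 80.5% were higher under these scalings. All 21 members called higher were so under each of the 3 scalings, but of the 9 called lower only Cox6b2 and Cox7a1 were. The arrays of both groups did not overlap for 59 members (72%, against 71.1% of all genes).

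Of the 82 members, 42 were called in no comparison at all (51.2%, against 43.1% of all genes). The 2 kinds of colony differed from each other at 5 members (6.1%), where 15.1% of all genes were called. Of these Ndufs7 and Uqcrfs1 were higher in PGC colonies and Ndufa4l2, Cox6b2 and Sdha lower, with backgrounds of 7.08% higher and 7.98% lower. Only Ndufa4l2 was called at 2-fold or more (1.22% of members, against 5.17% of all genes). The calls of Cox6b2, Ndufa4l2 and Sdha held under all 3 scalings, and those of Ndufs7 and Uqcrfs1 held with quantile normalization alone. The number of members called changed when any 1 array was left out, and the share of all genes called was then below 15.1% in each case. Differences between the colonies were within 0.5 for 76 members (92.7%, against 80.9% of all genes), and the arrays did not overlap for 48 (58.5%, against 56.7%).

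**Figure D1:**
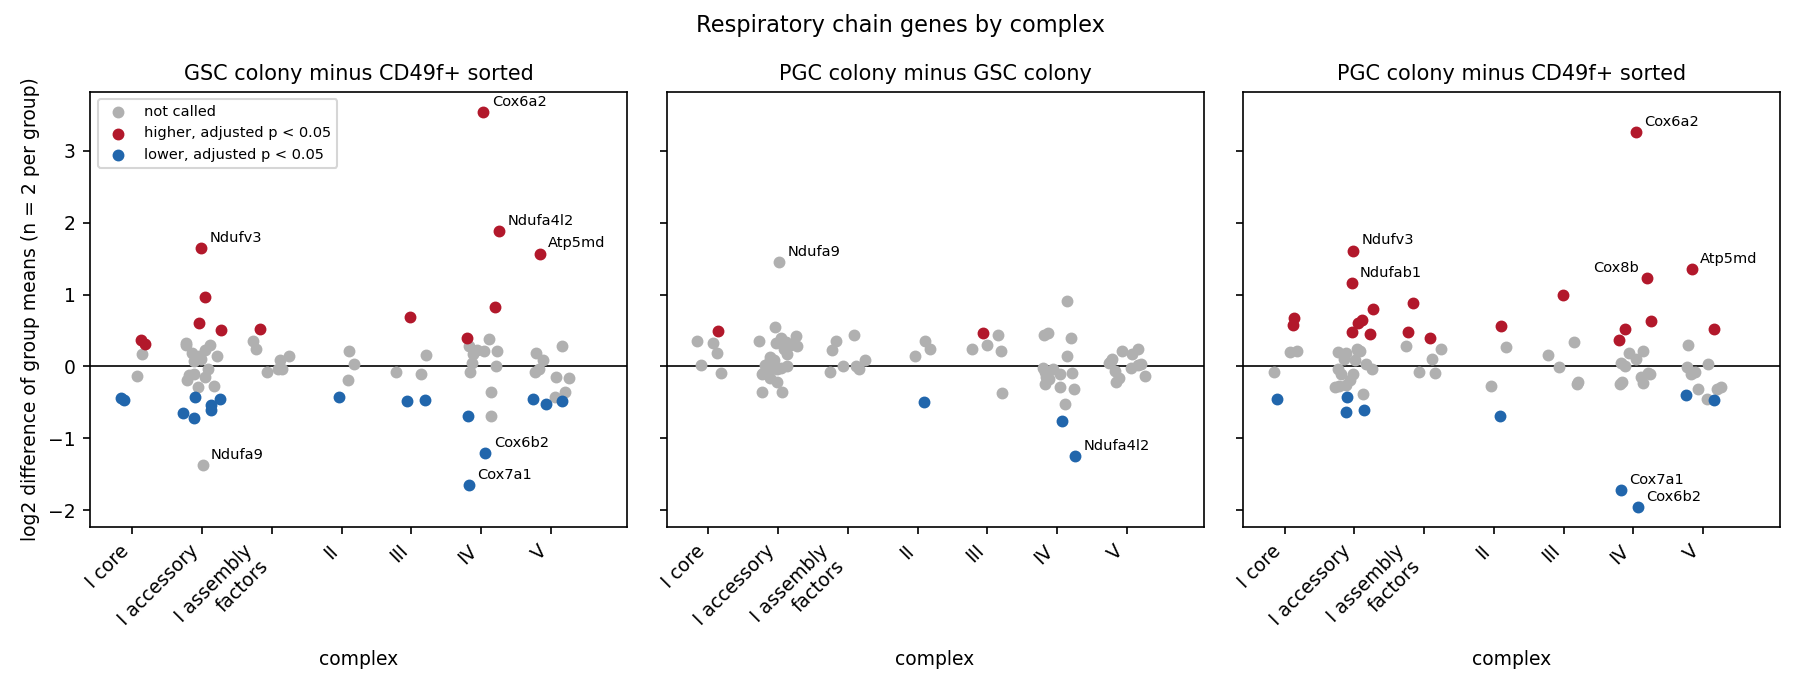
Differences between group means on the log2 scale (vertical axis) for the 82 tested members, placed by complex, in the 3 comparisons. Each point is 1 gene and filled colours mark limma adjusted p under 0.05; most points lie within 0.5 of 0, the highest points are Cox6a2 at 3.54 and 3.26, and the lowest is Cox6b2 at -1.95.

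Complex IV held the largest rise and the largest called falls against sorted cells, all in its tissue isoforms. Ndufv3 of complex I (1.65 in GSC and 1.61 in PGC colonies) and Atp5md of complex V (1.57 and 1.35) rose by more than the isoform Cox8b. Of 8 such isoforms (Cox4i2, Cox6a2, Cox6b2, Cox7a1, Cox7b2, Cox8b, Cox8c and Ndufa4l2), 7 were tested. In GSC colonies against sorted cells 3 were called higher and 2 lower (71.4%, against 47.1% of all genes). Their median absolute difference was 1.20, against 0.42 for all genes. Such medians take the fitted values, also for Cox7a1, Cox8b and Ndufa4l2, for which only bounds are given below. Cox8b and Ndufa4l2 passed the filter through colony arrays alone, and Cox7a1 passed it only with the sorted arrays. Each was high in the group that let it pass, so the called share of the isoforms is partly fixed by the filter. Among the other 11 members of complex IV, 1 was called higher (Cox4i1) and 1 lower (Ndufa4), 18.2%, with a median absolute difference of 0.23. In PGC colonies against sorted cells the same counts were 3 higher and 2 lower of 7 (71.4%), and 2 higher and 0 lower of 11 (18.2%). Their median absolute differences were 1.23 and 0.22. Of all genes 46% were called there, with a median absolute difference of 0.39. Between the colonies 2 of the 7 isoforms were lower in PGC colonies (28.6%, against 15.1% of all genes called either way). Limma called 0 of the other 11 (2 at an unadjusted p under 0.05). The isoform counts against sorted cells were the same with median centring, while the other 11 then had 4 higher and 0 lower in GSC colonies and 2 and 0 in PGC colonies.

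The promoters of 3 pairs of a partner made in most tissues and a restricted partner are shown as a description. The pairs of Cox6a2, Cox4i2 and Ndufa4l2 are not shown as pairs. No link between promoter letters and the differences was tested. Each line is the 180 bases before the RefSeq start on build GRCm38.p6, 5′ to 3′ on the gene's strand, with capitals for any motif named below. The first line of each pair is the partner made in most tissues. The windows are chr7:30626115-30626294 (minus strand) and chr7:4753095-4753274 (minus strand), chr9:79759854-79760033 (minus strand) and chr7:30183991-30184170 (plus strand), and chr19:7217617-7217796 (minus strand) and chr7:140900447-140900626 (minus strand).
Cox6b1: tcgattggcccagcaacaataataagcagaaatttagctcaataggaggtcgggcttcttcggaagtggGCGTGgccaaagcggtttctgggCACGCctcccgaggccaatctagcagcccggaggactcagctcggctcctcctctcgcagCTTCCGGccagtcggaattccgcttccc
Cox6b2: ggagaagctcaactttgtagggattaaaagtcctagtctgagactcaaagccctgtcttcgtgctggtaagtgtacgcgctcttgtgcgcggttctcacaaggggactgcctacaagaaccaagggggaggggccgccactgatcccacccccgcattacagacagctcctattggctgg
Cox7a2: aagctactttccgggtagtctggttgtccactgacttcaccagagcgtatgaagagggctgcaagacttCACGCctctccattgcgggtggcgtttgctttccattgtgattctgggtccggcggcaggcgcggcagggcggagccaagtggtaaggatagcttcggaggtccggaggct
Cox7a1: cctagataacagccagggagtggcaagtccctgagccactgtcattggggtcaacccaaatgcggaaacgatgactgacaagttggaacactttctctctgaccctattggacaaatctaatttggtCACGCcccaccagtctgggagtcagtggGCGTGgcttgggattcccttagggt
Cox8a: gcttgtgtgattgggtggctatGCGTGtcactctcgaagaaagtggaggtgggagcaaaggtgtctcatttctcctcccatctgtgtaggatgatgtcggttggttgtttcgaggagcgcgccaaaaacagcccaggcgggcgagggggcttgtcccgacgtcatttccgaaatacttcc
Cox8b: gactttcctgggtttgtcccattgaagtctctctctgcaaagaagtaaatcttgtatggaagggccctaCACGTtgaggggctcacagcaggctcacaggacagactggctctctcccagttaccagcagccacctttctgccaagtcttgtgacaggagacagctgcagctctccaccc
The motifs are CCGGAAG, the core bound by ETS factors such as GABP, and ACGTG and GCGTG, the 2 forms of the core of a hypoxia response element, each read on both strands. In the 250 bases before the start, CG pairs numbered 14 for Cox6b1 and 8 for Cox6b2, 14 for Cox7a2 and 4 for Cox7a1, and 11 for Cox8a and 1 for Cox8b. The median was 15 over the 69 members whose promoters were searched and 6 over all 32851 promoters. A CCGGAAG core lay 28 bases before the start of Cox6b1. GCGTG lay at 111 and 88 bases in Cox6b1, at 111 in Cox7a2, at 53 and 25 in Cox7a1 and at 158 in Cox8a, and ACGTG at 111 in Cox8b, so that hypoxia cores were in both kinds of partner. None of these motifs was in the Cox6b2 window. A match is a description of the letters and shows no binding.

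Cox6a2, the heart and skeletal muscle form of subunit 6a, had the largest rise of any member. Its normalized log2 values were 13.21 and 13.32 in GSC colonies, 9.78 and 9.68 in sorted cells, and 12.97 and 13.00 in PGC colonies. All colony arrays thus lay far above both sorted arrays, and deposited intensities were 10978 and 12379, 633.6 and 614.5, and 8738 and 9281 in the same order. Cox6a2 was 11.6-fold higher in GSC colonies (log2 difference 3.54 ± 0.11 SE, adjusted p = 3.6e-06) and 9.58-fold higher in PGC colonies (3.26 ± 0.11 SE, adjusted p = 5.9e-06). A further Cox6a2 probe moved the same way by less, with differences of 1.08 and 1.24, and the mean over both probes gave 2.31 and 2.25. Cox6a1, its partner in most tissues, differed by 0.05 in GSC colonies (adjusted p = 0.80) and was higher by 0.52 in PGC colonies (adjusted p = 0.020).

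Skeletal muscle markers were higher in PGC colonies, as Cox6a2 was, but few were called in GSC colonies. Over 14 muscle genes (Myog, Acta1, Tnnt1 and others) the mean log2 level was 8.80 and 8.60 in GSC colonies, 8.42 and 8.55 in sorted cells, and 10.11 and 10.17 in PGC colonies, with 3 to 6 of the 14 below the 30th percentile of each array. Of 12 tested, 1 was higher and 3 lower in GSC colonies than in sorted cells, and 10 were higher and 1 lower in PGC colonies than in sorted cells and likewise than in GSC colonies. Acta1, the skeletal muscle actin, was below the 30th percentile on all 4 GSC colony and sorted arrays. The 1 gene called higher in GSC colonies was Des, with means of 13.81 there and 8.79 in sorted cells (log2 difference 5.02, adjusted p = 3.1e-06). Des was also the 1 gene called lower in PGC than in GSC colonies (-3.32, adjusted p = 7.8e-05). Fibroblast genes moved with Cox6a2: their mean level was 14.51 and 14.56 in GSC colonies, 10.57 and 10.59 in sorted cells and 13.92 and 14 in PGC colonies, and 9 of 9 tested were higher in each kind of colony. The part of the cells these lists mark in the Cox6a2 difference was not tested.

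Cox8b, the muscle and brown fat form of subunit 8, was also higher in both kinds of colony, at a low level. It measured 7.93 and 7.79 in GSC colonies, 7.11 and 6.96 in sorted cells, and 8.19 and 8.34 in PGC colonies. Both sorted arrays lay below the 30th percentile of their array, at a filter level of 7.82, so only a bound is given, against that percentile. Cox8b passed the filter through colony arrays alone, and its p-values rest on sorted values below that level. Against sorted cells the rise of Cox8b was at least 1.03-fold in GSC colonies (adjusted p = 0.0019) and at least 1.36-fold in PGC colonies (adjusted p = 0.00034), with mean levels of 7.86, 7.03 and 8.26 in GSC colonies, sorted cells and PGC colonies. Cox8a, its partner in most tissues, differed by -0.08 and -0.22 (adjusted p = 0.56 and 0.14), a sign that turned to 0.72 and 0.37 with no normalization.

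Cox7a1, the heart and muscle form of subunit 7a, went the other way. Its values were 7.65 and 7.85 in GSC colonies, 9.62 and 9.19 in sorted cells, and 7.69 and 7.67 in PGC colonies. The sorted arrays stood above all 4 colony arrays, which were near or below the 30th percentile. With both PGC colony arrays and 1 of 2 GSC colony arrays below that percentile, bounds are given against it. Cox7a1 passed the filter only with the sorted arrays, and its p-values rest on colony values near or below that level. Cox7a1 was at least 2.97-fold lower in GSC colonies (adjusted p = 0.00035) and at least 3.0-fold lower in PGC colonies (adjusted p = 0.0003), with means of 7.75, 9.40 and 7.68 in GSC colonies, sorted cells and PGC colonies. The partner Cox7a2 differed by -0.36 and -0.23 (adjusted p = 0.11 and 0.30), and its further probe by -0.75 and -0.78. With the mean over both Cox7a2 probes the differences were -0.56 and -0.50 and both were called. Thus 3 muscle-type isoforms of complex IV did not move together: Cox6a2 and Cox8b were called higher in the colonies and Cox7a1 lower, under all 3 scalings. For Cox8b and Cox7a1 only the bounds above hold.

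Cox6b2, the testis form of subunit 6b, was highest in sorted cells and lowest in PGC colonies. Its values were 11.28 and 11.19 in GSC colonies, 12.33 and 12.52 in sorted cells, and 10.28 and 10.67 in PGC colonies, so that no group overlapped another. The differences were -1.20 ± 0.16 SE for GSC colonies against sorted cells (adjusted p = 0.0012), -1.95 ± 0.16 SE for PGC colonies against sorted cells (adjusted p = 0.00015) and -0.76 ± 0.16 SE for PGC against GSC colonies (adjusted p = 0.026). A further probe gave -1.18, -1.73 and -0.55. The call between the colonies was lost without the first GSC colony array or the first PGC colony array. Cox6b1 differed by 0.23, 0.19 and -0.04, none called (adjusted p = 0.18, 0.25 and 0.87).

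Markers of the testis cell types moved with Cox6b2 in part. The 12 Sertoli genes averaged 15.45 on both sorted arrays and 12.15 to 12.28 on the colony arrays, and 11 of 12 were lower in GSC colonies. Germ cell genes averaged 9.27 and 9.29 in GSC colonies, 8.60 and 8.56 in sorted cells and 8.29 and 8.23 in PGC colonies, with 4 to 6 of 12 below the 30th percentile of each array. Of 8 tested, 6 were higher and 0 lower in GSC colonies than in sorted cells, where Cox6b2 was lower. In PGC colonies 0 were higher and 6 lower than in GSC colonies, and 0 higher and 2 lower than in sorted cells, where Cox6b2 was lower as well. Dazl, an RNA-binding protein of germ cells, was below that percentile on both PGC colony arrays, while Ddx4, a germ cell helicase, measured 9.72 to 10.27 on all 6 arrays. The 12 macrophage genes averaged 13.00 and 12.97 in sorted cells, 8.58 to 8.74 in GSC colonies and 9.63 to 9.77 in PGC colonies, and 12 of 12 were lower in each kind of colony. In PGC against GSC colonies, where Cox6b2 was lower, 8 macrophage genes were higher and 1 lower, and 1 Sertoli gene was higher and 3 lower. Of 8 mitosis genes tested, 0 were higher and 7 lower in GSC colonies than in sorted cells, and 0 and 6 in PGC colonies. Limma called 0 of these 8 between the colonies, with 1 at an unadjusted p under 0.05. The part of the cells these lists mark in the Cox6b2 differences was not tested. The other testis forms gave little signal: Cox7b2 was not called in any comparison (differences 0.21, -0.31 and -0.10), and Cox8c lay below the filter.

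**Figure D2:**
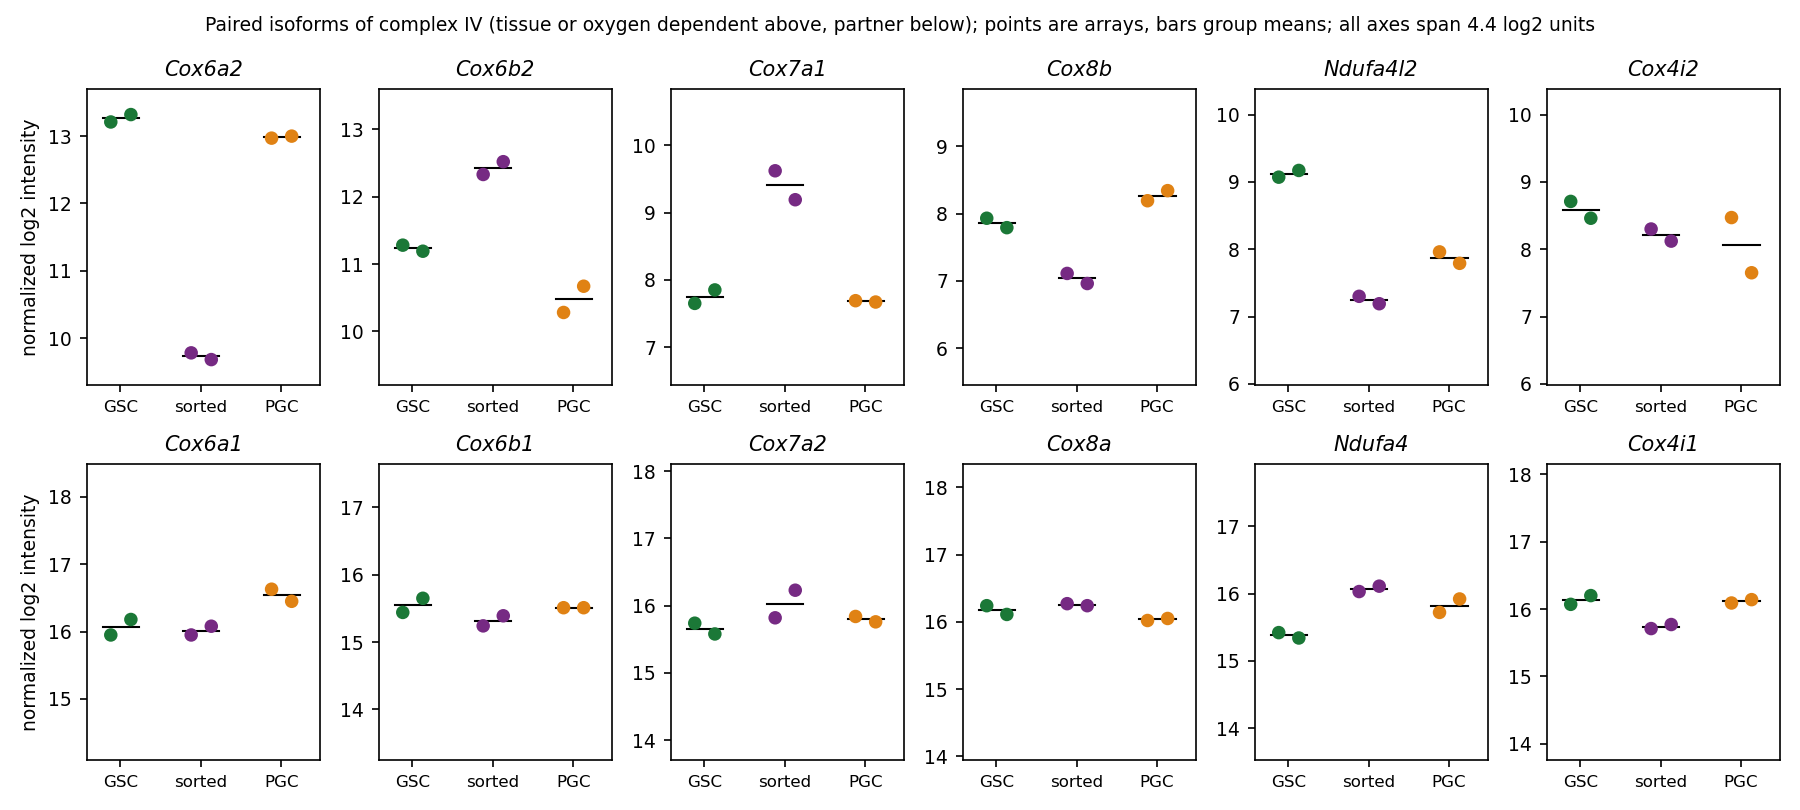
Normalized log2 intensity (vertical axis) of paired complex IV genes on each of the 6 arrays, by group, with bars at the group means. Cox6a2 stands near 13 on the colony arrays and below 10 on the sorted arrays, Cox7a1 and Cox6b2 are highest in sorted cells, and Ndufa4l2 is highest in GSC colonies; levels of different genes are not comparable.

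Ndufa4l2 separated all 3 groups. It encodes a paralog of the complex IV subunit NDUFA4 and is known as a target of the hypoxia-inducible factor. Its values were 9.07 and 9.17 in GSC colonies, 7.30 and 7.19 in sorted cells, and 7.96 and 7.79 in PGC colonies, so that the GSC colony arrays stood above the rest. Both sorted arrays lay below the 30th percentile. GSC colonies had at least 2.46-fold more Ndufa4l2 than sorted cells (adjusted p = 4.7e-05) and PGC colonies at least 1.04-fold more (adjusted p = 0.0054), with means of 9.12, 7.24 and 7.87 in GSC colonies, sorted cells and PGC colonies. PGC colonies, with 1 of 2 arrays below the percentile, had at least 2.35-fold less than GSC colonies (adjusted p = 0.0012), and both grew under 5% O2. All 3 calls held in each alternative in which the gene passed the filter, though in the main setting it passed through colony arrays alone.

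The partner Ndufa4, first listed with complex I and now placed in complex IV, measured 15.42 and 15.34 in GSC colonies, 16.03 and 16.11 in sorted cells, and 15.72 and 15.92 in PGC colonies. It was lower in GSC colonies by 0.69 (log2 difference -0.69 ± 0.12 SE, adjusted p = 0.0039), a call that was lost with median centring and a sign that turned to 0.09 with no normalization. Cox4i1, the subunit 4 of most tissues, was higher in both kinds of colony, by 0.40 ± 0.11 SE (adjusted p = 0.024) and 0.37 ± 0.11 SE (adjusted p = 0.031). Both Cox4i1 calls were lost when any 1 of the GSC colony or sorted arrays was left out, and the call in PGC colonies also without the second PGC colony array. Cox4i2, its oxygen-responsive paralog, measured 8.71 and 8.46, 8.30 and 8.12, and 8.47 and 7.65, with overlapping PGC colony and sorted arrays. It was not called in any comparison (0.38, -0.15 and -0.52 ± 0.27 SE each, adjusted p = 0.30, 0.70 and 0.25).

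Genes tied to oxygen were listed beside these: 14 were tested, of which 8 were higher and 2 lower in GSC colonies than in sorted cells. PGC colonies had 5 higher and 3 lower than sorted cells, and 0 higher and 4 lower than GSC colonies. The called shares were 71.4%, 57.1% and 28.6% in GSC against sorted, PGC against sorted and PGC against GSC. For all genes they were 47.1%, 46% and 15.1%. Vegfa, the endothelial growth factor induced by hypoxia, was higher in both kinds of colony, by 2.64 and 2.98 (adjusted p = 1.2e-05 and 9.7e-06). Adm, a vasoactive peptide, and Bnip3, a mitophagy receptor, were higher than in sorted cells in GSC colonies (1.39 and 1.01) and lower in PGC than in GSC colonies (-2.62 and -0.96, adjusted p = 0.00017 and 0.0052). In PGC colonies Adm was lower than in sorted cells (-1.23, adjusted p = 0.00073), the largest fall of the list there. Bnip3 was 0.05 there (adjusted p = 0.77), and 0.45 and called with no normalization. The largest fall in GSC colonies was that of Higd2a (-0.57, adjusted p = 0.012). Egln3, an oxygen-sensing hydroxylase, was higher in both kinds of colony (1.14 and 1.56). Lonp1, a matrix protease known to degrade COX4-1, was also higher in both (1.19 and 1.48), and Pdk1, the kinase that shuts off pyruvate dehydrogenase, was not called (-0.13 and -0.12, and 0.21 and 0.26 with no normalization). With median centring the list had 9 higher and 1 lower in GSC colonies and the same counts in the other comparisons. From the pericyte and smooth muscle list Kcnj8 was highest in GSC colonies: 10.41 and 10.28 in GSC colonies, 9.03 and 9.11 in sorted cells and 9.35 and 9.14 in PGC colonies. Kcnj8 was picked after its values were seen, so its pattern cannot stand for its list. That list of 11 averaged 11.27 and 11.25, 9.39 and 9.44, and 10.90 and 10.77 in these groups, with 7 higher and 1 lower of 9 tested in GSC colonies against sorted cells, 5 and 2 in PGC colonies against sorted cells, and 3 and 4 in PGC against GSC colonies. Pdgfrb, Cspg4 and Notch3 were higher in PGC than in GSC colonies (0.58, 0.54 and 1.08), unlike Ndufa4l2, and Rgs5 was below the 30th percentile on all 6 arrays. The part of these cells in the Ndufa4l2 difference was not tested.

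Complex I had 33 tested subunits, of which 6 were higher and 8 lower in GSC colonies than in sorted cells, 1 higher and 0 lower in PGC than in GSC colonies, and 9 higher and 4 lower in PGC colonies than in sorted cells. These were 42.4%, 3.03% and 39.4% of the 33, each below the 47.1%, 15.1% and 46% of all genes. The core subunits carry the flavin and the iron-sulfur clusters. Of the 6 measured core genes, Ndufs8 was higher in both kinds of colony (0.37 ± 0.12 SE, adjusted p = 0.039, and 0.57 ± 0.12 SE, adjusted p = 0.0078), though the first call was lost without any 1 of the 4 arrays compared. Ndufs7, which holds the cluster nearest to ubiquinone, measured 13.73 and 13.74 in GSC colonies, 13.50 and 13.62 in sorted cells, and 14.17 and 14.30 in PGC colonies. It was higher in PGC colonies than in sorted cells by 0.67 ± 0.11 SE (adjusted p = 0.0032) and than in GSC colonies by 0.50 ± 0.11 SE (adjusted p = 0.031), the second call being lost in 9 of 16 alternatives. Ndufs3 was called lower in both kinds of colony with quantile normalization (-0.47 and -0.45) and its sign turned to 0.08 and 0.06 with none. Ndufv1, the flavin subunit, was -0.44 in GSC colonies (adjusted p = 0.046) with 0.26 under no normalization, Ndufv2 was 0.31 (adjusted p = 0.045, lost with median centring), and Ndufs1 was not called (-0.13 and 0.20).

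Ndufv3, an accessory subunit of the NADH-binding module, had the largest rise in complex I. It measured 14.32 and 14.23 in GSC colonies, 12.69 and 12.57 in sorted cells, and 14.13 and 14.36 in PGC colonies. The 4 colony arrays overlapped each other and lay above both sorted arrays. It was 3.13-fold higher in GSC colonies (1.65 ± 0.13 SE, adjusted p = 0.00011) and 3.06-fold higher in PGC colonies (1.61 ± 0.13 SE, adjusted p = 0.00012), and the difference between the colonies was -0.03 ± 0.13 SE. The 2 further Ndufv3 probes gave 1.42 and 1.25, and 2.07 and 1.89, and the call held in all 16 alternatives. Its promoter, at chr17:31519935-31520114 (plus strand) on GRCm38.p6, is shown as that of the complex I gene that moved most, with GCGTG cores in capitals, read as CACGC at 100 bases before the start and as GCGTG at 60.
Ndufv3: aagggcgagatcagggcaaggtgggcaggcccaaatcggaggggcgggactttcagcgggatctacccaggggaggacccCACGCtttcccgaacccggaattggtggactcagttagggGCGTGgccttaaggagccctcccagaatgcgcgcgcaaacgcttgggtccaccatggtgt

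Other accessory subunits moved less. Ndufb10, an intermembrane-space subunit of the membrane arm, was higher by 0.97 ± 0.15 SE in GSC colonies (adjusted p = 0.0026) and by 0.61 in PGC colonies (adjusted p = 0.018). Ndufab1, the mitochondrial acyl carrier protein, rose by 0.61 ± 0.16 SE and 1.16 ± 0.16 SE (adjusted p = 0.021 and 0.0015), with values of 9.67 and 9.63 in GSC colonies, 9.09 and 8.99 in sorted cells and 9.99 and 10.42 in PGC colonies. Its 2 sorted arrays were thus the lowest and its PGC colony arrays the highest. Ndufb9 was higher by 0.51 and 0.80 (adjusted p = 0.010 and 0.0015). Ndufc2, a membrane-arm subunit, measured 7.70 and 7.85 in GSC colonies, 8.62 and 8.36 in sorted cells and 7.91 and 7.82 in PGC colonies. Its colony levels were at the 30th percentile, with 1 GSC colony array below it. It was at least 1.58-fold lower in GSC colonies (adjusted p = 0.0052), the only complex I gene called lower under all 3 scalings there. In PGC colonies its difference was -0.63 (adjusted p = 0.0093), a call lost with no normalization and without the first sorted array. In all, 4 of 27 accessory subunits were called higher and 6 lower in GSC colonies (37%, against 47.1% of all genes), and 7 higher and 3 lower in PGC colonies (37%, against 46%). With median centring these counts were 10 and 1 in each kind of colony. Between the colonies limma called 0 of the 27, with 8 at an unadjusted p under 0.05 and the lowest adjusted p, 0.056, for Ndufa12.

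Of the 8 complex I assembly factors named Ndufaf, Ndufaf8 was higher in both kinds of colony (0.52 ± 0.14 SE, adjusted p = 0.025, and 0.88 ± 0.14 SE, adjusted p = 0.0030). Ndufaf5 and Ndufaf6 were higher in PGC colonies than in sorted cells, by 0.48 and 0.40. Limma called 0 of the 8 lower in any comparison or under any of the 3 scalings, with 2, 2 and 3 at an unadjusted p under 0.05 in either direction in GSC against sorted, PGC against GSC and PGC against sorted. Leaving the Ndufaf genes and the pseudogene out, 74 members were tested, and 29 were called in GSC colonies (12 higher, 17 lower) and 27 in PGC colonies (18 higher, 9 lower). These were 39.2% and 36.5%, against 47.1% and 46% of all genes.

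A pair of members had 1 discordant array. Ndufa9, a complex I subunit beside the ubiquinone site, measured 11.83 and 14.12 in GSC colonies against 14.38 and 14.30 in sorted cells and 14.25 and 14.61 in PGC colonies. Cox7a2l, a factor that joins complexes III and IV, measured 12.78 and 14.91, against 14.42 to 14.87 on the other 4 arrays. In both the first GSC colony array was low, by over 4-fold from the second, as for 195 of 15459 genes on these arrays. Neither difference from sorted cells was called (-1.37 ± 0.67 SE, adjusted p = 0.14, and -0.69 ± 0.62 SE, adjusted p = 0.41). No other member had replicates 2-fold or more apart in any group.

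Complex II has 4 subunits, and their differences did not run together. Sdha, the flavoprotein that oxidizes succinate, measured 13.81 and 13.78 in GSC colonies, 13.87 and 14.10 in sorted cells, and 13.23 and 13.37 in PGC colonies. The PGC colony arrays were the lowest, with a difference of -0.69 ± 0.13 SE from sorted cells (adjusted p = 0.0049; -0.12 and not called with no normalization) and of -0.50 ± 0.13 SE from GSC colonies (adjusted p = 0.046). The second call was lost in 11 of 16 alternatives. Sdhb, the iron-sulfur subunit, went the other way in PGC colonies against sorted cells (0.56 ± 0.19 SE, adjusted p = 0.048), a call lost in 6 of 16. Of the membrane anchors, Sdhd was -0.42 in GSC colonies (adjusted p = 0.035; 0.30 with no normalization) and Sdhc was 0.03 (adjusted p = 0.86).

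Complex III had 6 tested members, 1 called higher and 2 lower in GSC colonies, 1 higher and 0 lower in PGC colonies, and 1 higher in PGC than in GSC colonies. These were 50%, 16.7% and 16.7% of the 6, against 47.1%, 46% and 15.1% of all genes. Uqcrq, a small subunit beside cytochrome b, measured 15.51 and 15.37 in GSC colonies, 14.79 and 14.71 in sorted cells and 15.67 and 15.82 in PGC colonies. Its colony arrays all lay above the sorted ones, with differences of 0.69 ± 0.12 SE (adjusted p = 0.0035) and 0.99 ± 0.12 SE (adjusted p = 0.00073). Uqcrfs1, the Rieske iron-sulfur protein, measured 14.02 and 14.21, 14.64 and 14.55, and 14.52 and 14.65 in the same order of groups. Its GSC colony arrays were the lowest, with -0.48 against sorted cells (adjusted p = 0.018; 0.22 with no normalization) and 0.47 for PGC against GSC colonies (adjusted p = 0.048, lost in 13 of 16 alternatives). The core protein gene Uqcrc2 was -0.46 in GSC colonies (adjusted p = 0.023; 0.34 with no normalization), and Uqcrc1 was -0.08 (adjusted p = 0.67). The other small subunits were not called: Uqcr10 was -0.10 and 0.34 against sorted cells and Uqcr11 was 0.16 and -0.21.

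Complex V, ATP synthase, had 13 tested members, 1 called higher and 3 lower in GSC colonies, 2 higher and 2 lower in PGC colonies, and 0 between the colonies (0 also at an unadjusted p under 0.05 in limma). Against sorted cells 30.8% were called in each kind of colony, below the 47.1% and 46% of all genes. With median centring 2 were higher and 0 lower in each kind of colony. Atp5md, a small membrane subunit at the interface of ATP synthase dimers, measured 9.88 and 9.85 in GSC colonies, 8.40 and 8.20 in sorted cells, and 9.55 and 9.75 in PGC colonies. It was 2.96-fold higher in GSC colonies (1.57 ± 0.13 SE, adjusted p = 0.00014) and 2.54-fold higher in PGC colonies (1.35 ± 0.13 SE, adjusted p = 0.00028), and both calls held in all 16 alternatives. The alpha and beta subunits of the catalytic head were not called: Atp5a1 (alpha) was -0.15 and 0.03, and Atp5b (beta) was -0.42 and -0.45 ± 0.23 SE (adjusted p = 0.19 and 0.17).

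The 3 genes of the membrane ring, which encode the same mature protein, differed from each other. Atp5g1 was 0.28 (adjusted p = 0.22) and 0.52 (adjusted p = 0.044), the second being 0.12 and not called with the mean of its probes. Atp5g2 was -0.45 and -0.39 (adjusted p = 0.013 and 0.022), and with no normalization 0.35 and 0.22. Atp5g3 was -0.52 and -0.31 (adjusted p = 0.019 and 0.11), the first 0.24 with no normalization. Under every scaling Atp5g1 had the highest difference of the 3 in both comparisons; the difference between the genes was not tested. Atp5e, the epsilon subunit of the head, was -0.48 and -0.46 (adjusted p = 0.024 and 0.028) and was called lower with quantile normalization alone.

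**Figure D3:**
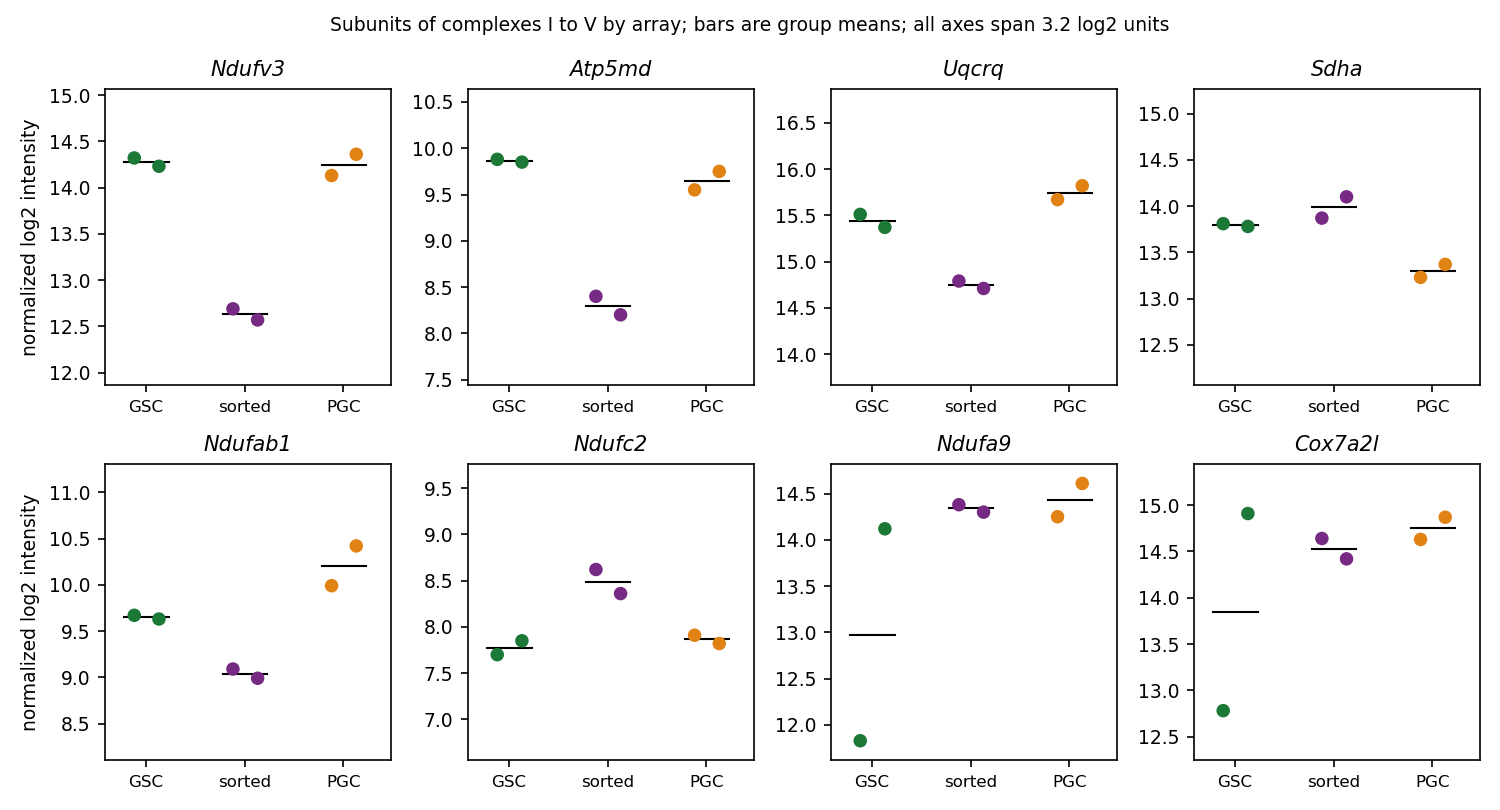
Normalized log2 intensity (vertical axis) of subunits of complexes I to V on each of the 6 arrays, by group, with bars at the group means. Ndufv3, Atp5md and Uqcrq are higher on all 4 colony arrays than on the sorted arrays, Sdha is lowest in PGC colonies, and the first GSC colony array stands alone at 11.83 for Ndufa9.

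**Figure D4:**
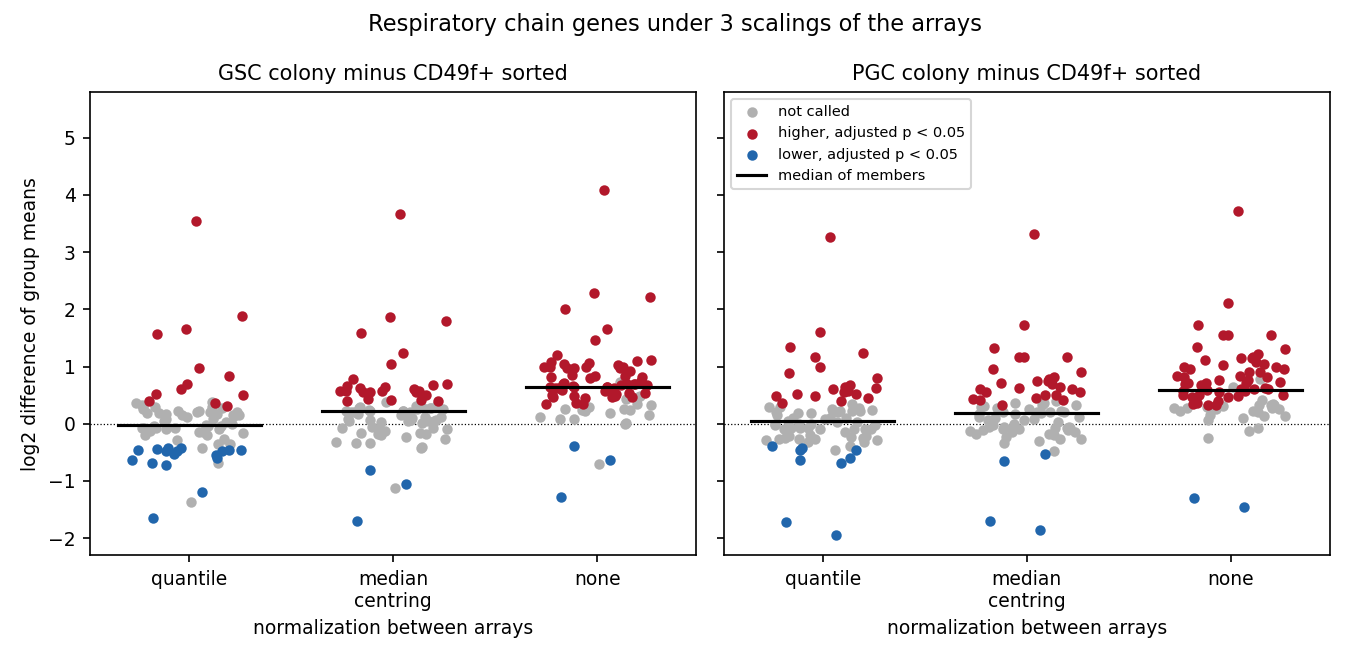
Log2 differences of the 82 members (points) from sorted cells under quantile normalization, median centring and no normalization (horizontal axis), with the member median as a line. The member median of GSC colonies moves from -0.01 to 0.22 and 0.64, while the points of Cox6a2, Cox7a1 and Cox6b2 stay on their side of 0.

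Genes that build, feed or regulate the chain were listed as well, with these counts beside the backgrounds above. Of 33 tested assembly factors of the complexes, 10 were higher and 5 lower in GSC colonies, 12 higher and 2 lower in PGC colonies, and 1 higher (Foxred1, 0.57, lost with no normalization) in PGC than in GSC colonies. With median centring the assembly factors had 16 higher and 2 lower in GSC colonies and 15 and 2 in PGC colonies. Sco2, a copper chaperone of complex IV, was higher in both (1.86 ± 0.14 SE and 2.06 ± 0.14 SE, adjusted p = 9.6e-05 and 6.7e-05), and Coa7, another complex IV factor, was lower in both (-1.50 ± 0.25 SE and -1.01 ± 0.25 SE, adjusted p = 0.0032 and 0.017), the second being -0.56 and not called with no normalization. Among 17 genes of the electron carriers and of coenzyme Q synthesis, 3 were higher and 3 lower in GSC colonies and 3 higher and 5 lower in PGC colonies, with Coq10a at 1.17 and 0.82 and Coq7, a hydroxylase of the pathway, at -1.10 and -0.92 (-0.48 and -0.38, still called, with no normalization). PGC colonies had 2 of these 17 higher and 1 lower than GSC colonies. Coq5 had the largest of those differences (2.40, adjusted p = 0.037), with GSC colony arrays far apart at 6.72, below the 30th percentile, and 8.59.

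Of 14 regulators of mitochondrial biogenesis, 2 were higher and 3 lower in GSC colonies and 3 higher and 2 lower in PGC colonies. Esrra, a nuclear receptor that drives mitochondrial genes, was higher in both (1.08 ± 0.17 SE and 0.99 ± 0.17 SE, adjusted p = 0.0023 and 0.0036), and Polg2, the accessory subunit of the mitochondrial DNA polymerase, was lower (-0.74 and -0.71, not called with no normalization). Ppargc1a, the coactivator PGC-1 alpha, lay below the 30th percentile on all 6 arrays. Of 15 genes of the TCA cycle and its entry, 1 was higher and 5 lower in GSC colonies and 3 higher and 4 lower in PGC colonies, and with median centring 4 and 2, and 3 and 2. Pdha1, a subunit of pyruvate dehydrogenase, had the largest rise (2.18 ± 0.16 SE and 2.26 ± 0.16 SE, adjusted p = 8.3e-05 and 7.8e-05) and Idh2 the largest fall in both (-1.16 and -0.87, adjusted p = 0.00037 and 0.0013), though with no normalization it was -0.48 and -0.30, the second not called. Of 10 carriers of the mitochondrial membranes, 1 was higher and 3 lower in GSC colonies and 1 each way in PGC colonies, and with median centring 2 higher and 1 lower in each. Slc25a4, the muscle-type ADP/ATP carrier, was higher (0.93 and 1.20) and Vdac3, a porin of the outer membrane, lower (-0.92 and -0.87, not called with no normalization). Between the colonies limma called 0 genes of biogenesis, 0 of the TCA cycle and 0 of the carriers, with 1, 5 and 3 at an unadjusted p under 0.05.

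Some motifs were found in a larger share of the members than of all promoters, with no test run. The 250 bases before the RefSeq start were searched for 69 of the 85 members. Member promoters on a chromosome that the search skipped were left out, but that chromosome was not removed from all promoters. A member counted once if any of its promoters held the motif, while all promoters were counted singly, so the shares are of unlike units. The site of nuclear respiratory factor NRF1, searched as GCGCA, any base and GCGC, occurred on either strand in 12 of them (17.4%), against 3.74% of all 32851 promoters, and CCGGAAG in 10 (14.5%), against 6.91%. The hypoxia core ACGTG was in 14 (20.3%, against 16.6%) and GCGTG in 29 (42%, against 28.2%). Median GC content was 57.2% in the members and 52.4% in all promoters, and these motifs hold CG pairs. Members that hold the NRF1 letters included Cox6a1, Sdha, Sdhd, Atp5g2 and Ndufs5, and 5 of the 12 were called in some comparison, as were 40 of the 82 tested members and 56.9% of all genes. The Cox6a1 promoter, at chr5:115348959-115349138 (minus strand) on GRCm38.p6, is shown because it holds the NRF1 letters 2 times (162 and 117 bases before the start) and a CCGGAAG core at 16 bases, all in capitals, and 26 CG pairs in 250 bases.
Cox6a1: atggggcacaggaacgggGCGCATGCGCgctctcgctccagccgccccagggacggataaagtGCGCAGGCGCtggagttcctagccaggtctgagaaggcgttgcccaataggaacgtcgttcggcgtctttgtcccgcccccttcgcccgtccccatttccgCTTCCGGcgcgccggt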

How the data were processed

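Members, complexes and gene lists were chosen with earlier results of these data known. RNA with an integrity number of at least 6 was hybridised to 6 Cy5 arrays, and the authors deposited linear probe intensity for 26423 probes, with values below 0 on 4 arrays, so it had been background-subtracted. Scanner, software and build: not given in the sources used here. Probes were named through the platform annotation (21876 with 1 symbol, 4547 with none); all 85 member symbols were in RefSeq's table. From these values normexp correction (offset 50), log2 and quantile normalization were computed (limma 3.58.1, R 4.3.3). The probe with the highest mean stood for a gene, and genes at or above the 30th percentile on at least 2 of 6 arrays were tested. A single fit of all arrays (lmFit, eBayes, 3 residual degrees of freedom, no block) gave each comparison, after a check on simulated data. The median SE was 0.134. Promoters are RefSeq's (GRCm38.p6). Named genes were those with isoforms, core subunits and, per comparison, the 5 largest called changes each way. Some further members given above, such as Uqcrq, Ndufb9, Ndufaf8 and Atp5e, fell outside this rule. Their differences are not among the named differences recomputed below. A total of 16 alternatives was run. No detection calls were used, so a value below the percentile is a bound, and the number of arrays limits precision.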

Additional observations from a re-analysis of the deposited data

How the results depend on the processing

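Over 16 alternatives, 1682 values of 106 named differences were recomputed. Of these, 1502 stayed on their side of the threshold, 128 lost the call and 32 gained it. Another 20 changed sign and were called in the main setting, the alternative or both. Sign changes of differences called in neither were counted among the 1502. All 20 did so with no normalization between arrays, where all genes moved as well. In GSC colonies against sorted cells these were Cox8a 0.72, Ndufa4 0.09, Atp5g2 0.35, Atp5g3 0.24, Sdha 0.48, Sdhd 0.30, Uqcrc1 0.51, Uqcrc2 0.34, Uqcrfs1 0.22, Ndufs1 0.46, Ndufs3 0.08, Ndufv1 0.26, Atp5a1 0.58 and Ndufb8 0.11. In PGC colonies against sorted cells they were Cox8a 0.37, Ndufa4 0.35, Atp5g2 0.22, Uqcrfs1 0.56, Ndufs3 0.06 and Ndufv1 0.50. With no normalization GSC colonies had 59 members higher and 3 lower than sorted cells (member median 0.169 above all genes, against -0.003 with quantile normalization), PGC colonies 53 and 2 (0.164, against 0.059), and PGC against GSC colonies 1 higher (-0.007, against 0.058). With median centring the counts were 26 and 3 (0.169), 27 and 4 (0.164), and 1 higher (-0.007). The number of members higher in PGC than in GSC colonies, 2, was 1 with values floored at 32, with an offset of 16 and with no filter, 4 with a filter at the 50th percentile (member median 0.092), and 0 when the 2 groups were fitted alone. Of all genes 14.3%, 14.6%, 12%, 18.6% and 10.4% were called either way in these settings, in the same order. Same-numbered arrays deviated together at r = -0.342, -0.179 and 0.326, which with 2 arrays a group cannot show whether the numbers pair the samples. With the replicate number as a block, 25, 2 and 26 members were called in GSC against sorted, PGC against GSC and PGC against sorted, with 0 higher in the second. These were 30.5%, 2.44% and 31.7% of the members, against 44%, 11% and 42.9% of all genes with the block. Without 1 array at a time, GSC colonies had 7 to 15 members higher and 4 to 18 lower than sorted cells (median -0.024 to 0.042), PGC colonies 12 to 20 and 3 to 11 (0.046 to 0.113), and PGC against GSC colonies 0 to 5 and 1 to 2 (0.052 to 0.106). Where an array was left out, the lone array of its group was taken to vary like the others. The causes of these changes were not tested. Cox7a1, Cox8b, Ndufa4l2, Cox6a2, Ndufv3 and Atp5md kept their calls against sorted cells in every alternative in which they were tested. Cox8b and Ndufa4l2 passed the filter through colony arrays alone, where they were high, so their kept calls are no added support for a rise. Likewise Cox7a1 passed it only with the sorted arrays, where it was high, so its kept calls are no added support for a fall. There is no detection call, so an array below 7.82, as for Cox8b, Cox7a1, Ndufa4l2 and Ndufc2, gives a bound only. Groups of 2 arrays are too small for a test of single outlying arrays.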
